A study of Mus musculus with 8 samples.

Results

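The 10 genes described here, Cdh5, Pecam1, Esam, Kdr, Flt1, Tek, Tie1, Vwf, Emcn and Egfl7, mark endothelial cells, and they were chosen by symbol from a table of 38741 distinct symbols. All 10 were found, all 10 had a mean of at least 1 FPKM over the 8 mice and so entered the test with 11118 genes in all, and 9 of them were above 0 in every mouse. FPKM scale sequenced fragments to exon length and to library size, so levels of genes of different length can be set side by side. The values come from whole gastrocnemius, the large calf muscle, of 4 male knockout mice (KO) homozygous for the Bcat2tm1.2Clyn allele and 4 male wild-type mice (WT), all on a C57BL6 background. Bcat2 encodes BCATm, the mitochondrial enzyme that begins the breakdown of branched-chain amino acids. KO mice were 10 to 11 weeks old and weighed 15 to 24 g, and WT mice were 9 to 10 weeks old and weighed 22 to 25 g. Mice of both genotypes, and their dams, had a free choice between chow and a diet without branched-chain amino acids, and muscles were taken under isoflurane. The tissue holds fibres, vessels, nerve, fat and connective tissue together. In such bulk samples fewer endothelial cells and less RNA per endothelial cell cannot be told apart.

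Endothelial cells line every vessel, and in muscle most of them belong to the capillaries that run along the fibres and supply oxygen and fuel. They are held together by adhesion proteins such as VE-cadherin, and they grow and survive through receptors for VEGF, which muscle fibres secrete, and through the angiopoietin receptor TIE2. Capillary number in muscle varies with fibre type and training. None of these genes takes part in branched-chain amino acid breakdown.

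RefSeq promoter windows on GRCm38.p6, running from 250 bases before to 50 bases after the RefSeq start, were at hand for 6 of the 10 genes. The RefSeq start of Tie1 lies inside the gene as the deposited table places it, so most of the Tie1 window lies inside that span. The 4 receptor genes are shown because they form 2 families of receptor tyrosine kinases, and 3 of them, Kdr, Flt1 and Tie1, were among the 4 genes with the smallest p described after the sequences. Capitals mark GGAA, the core that ETS factors such as ERG and FLI1 recognise, read on both strands as GGAA or TTCC.
Kdr, chr5:75978406-75978705, minus strand: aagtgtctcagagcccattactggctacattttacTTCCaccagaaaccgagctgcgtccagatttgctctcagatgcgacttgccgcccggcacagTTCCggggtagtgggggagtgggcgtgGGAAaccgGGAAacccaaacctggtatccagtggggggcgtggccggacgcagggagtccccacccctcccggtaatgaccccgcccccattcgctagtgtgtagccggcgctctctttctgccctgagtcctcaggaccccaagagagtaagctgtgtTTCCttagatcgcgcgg
Flt1, chr5:147725962-147726261, minus strand: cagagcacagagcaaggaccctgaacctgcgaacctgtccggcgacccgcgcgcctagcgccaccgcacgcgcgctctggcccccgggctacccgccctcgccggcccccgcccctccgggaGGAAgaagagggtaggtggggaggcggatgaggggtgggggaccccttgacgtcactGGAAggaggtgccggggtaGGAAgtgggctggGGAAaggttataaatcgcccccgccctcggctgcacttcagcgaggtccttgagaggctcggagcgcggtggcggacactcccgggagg
Tek, chr4:94739039-94739338, plus strand: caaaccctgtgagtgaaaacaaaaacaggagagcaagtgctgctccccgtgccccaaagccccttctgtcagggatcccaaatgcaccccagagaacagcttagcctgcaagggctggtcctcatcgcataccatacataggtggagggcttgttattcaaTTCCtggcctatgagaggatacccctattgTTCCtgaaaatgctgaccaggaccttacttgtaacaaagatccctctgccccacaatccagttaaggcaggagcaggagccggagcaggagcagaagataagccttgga
Tie1, chr4:118489800-118490099, minus strand: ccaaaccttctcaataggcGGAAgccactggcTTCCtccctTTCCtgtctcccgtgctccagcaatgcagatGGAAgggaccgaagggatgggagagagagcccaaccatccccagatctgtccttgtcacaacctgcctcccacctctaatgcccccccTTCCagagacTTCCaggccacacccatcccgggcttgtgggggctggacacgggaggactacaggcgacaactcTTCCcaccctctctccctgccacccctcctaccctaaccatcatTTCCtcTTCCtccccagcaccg
The core occurred 5 times in the Kdr window, 4 times in Flt1, 2 times in Tek and 9 times in Tie1. Its letters are short, and 96.0% of 32851 RefSeq windows of 300 bases held at least 1 match, with a median of 3. The letters GATA, read on both strands as GATA or TATC, occurred once in the Kdr window, 2 times in Tek and in neither of the other two, against 57.9% of all windows with at least 1. These matches describe the letters only.

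The target transcript checked the labels. Bcat2 stood at 2.89, 5.26, 2.91 and 2.09 FPKM in KO mice, against 83.0, 42.7, 46.0 and 41.2 FPKM in WT mice. The muscle label held, with the fibre gene Ckm at 10059 to 13975 FPKM in KO and 10379 to 13690 FPKM in WT. KO6 and WT1 carried fat transcripts, with Adipoq at 311 and 674 FPKM, against 23.3 to 49.9 FPKM in the other KO mice and 4.49 to 15.4 FPKM in the other WT mice. Skin transcripts were present in KO6, where Krt14 reached 108 FPKM, and the other 7 mice had 0.365 FPKM or less. Results are therefore given with and without KO6 and WT1. Depth relative to WT2 ran from 0.547 to 1.21 in KO and from 0.437 to 1.23 in WT. The median gene of KO8 lay 0.35 below its mean over the 8 mice on the log2 scale, at -0.35, against -0.06 to 0.14 in the other KO mice and -0.07 to 0.16 in WT mice.

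Between the genotypes, the mean level of 9 of the 10 endothelial genes was lower in KO muscle, at 60.6% to 83.4% of the WT mean, and no gene passed the test. The 9 genes are Cdh5, Pecam1, Esam, Kdr, Flt1, Tek, Tie1, Vwf and Emcn. The tenth, Egfl7, was listed at 0 in 1 WT mouse and is taken up separately. With limma-trend and Benjamini-Hochberg adjustment over all tested genes, 0 of the 10 passed 0.05 (limma adjusted p from 0.480 to 0.734), against 0.027% of all tested genes in either direction and 0.018% lower in KO. At an unadjusted limma p under 0.05 there were 4 of 10, Cdh5, Kdr, Flt1 and Tie1, all lower in KO, against 7.33% of all genes lower at that p, and 0 of 10 were higher, against 2.99%. The KO and WT values of Cdh5 alone did not overlap, 1 gene of 10, against 4.68% of all genes apart in that direction, and 0 of 10 were apart with KO higher, against 2.08%. Fitted changes were below 0 for 9 of 10 genes, against 63.6% of all tested genes. Their median was -0.43 on the log2(FPKM + 1) scale, KO minus WT, against -0.12 over all tested genes. After median-ratio scaling, which moved the median of all genes to -0.002, the 10 genes had a median of -0.29 with 9 below 0, against 50.3% of all genes below 0.

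**Figure D1:**
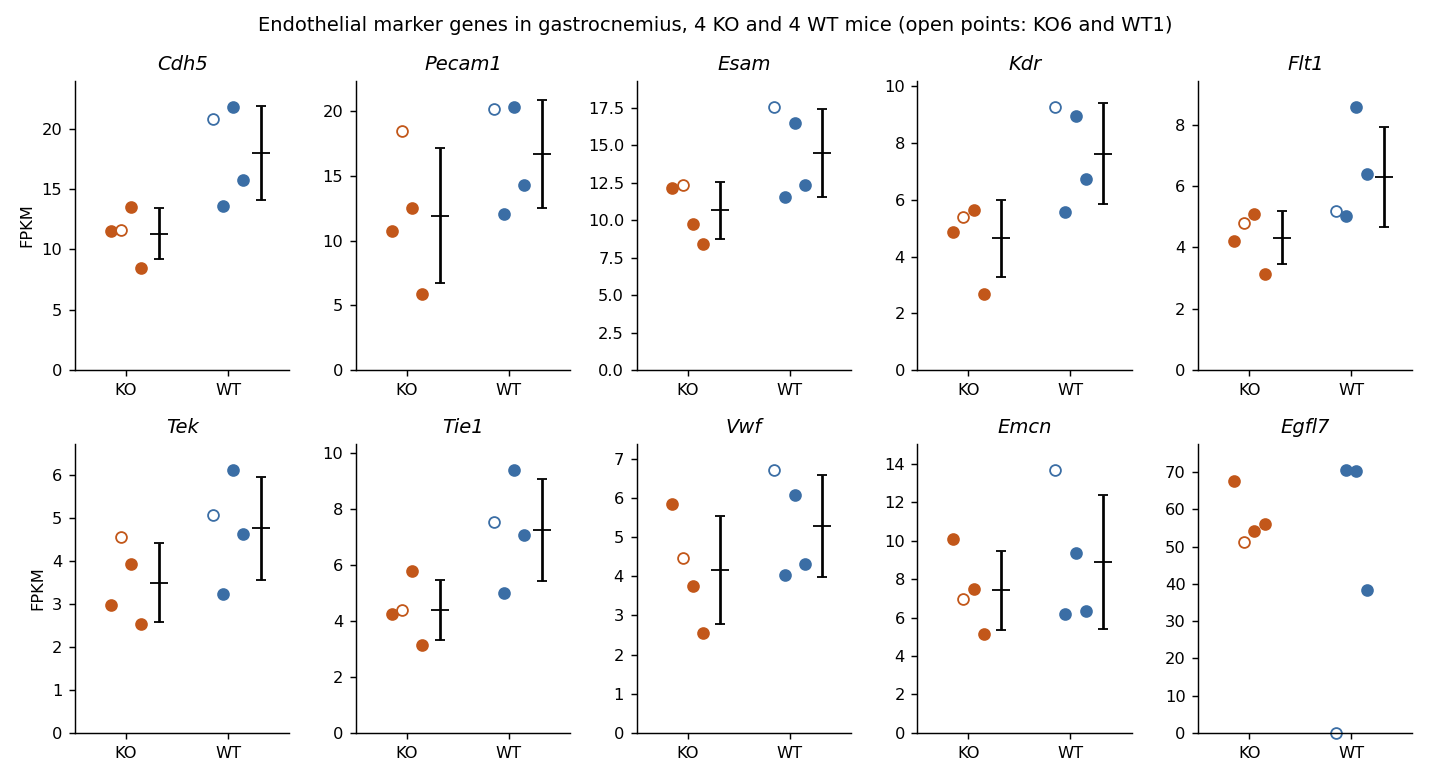
FPKM of each endothelial gene (vertical axis, from 0) in the 4 KO mice and, to their right, the 4 WT mice; points are mice, open points are KO6 and WT1, bars are mean ± SD (n = 4), left out for Egfl7, which is listed at 0 in WT1. In Cdh5 the KO points all lie under the WT points (highest KO 13.5 FPKM, lowest WT 13.6 FPKM), and in the other 9 genes the groups overlap.

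In order of level over the 8 mice, Egfl7 came at the top with 51.0 ± 23.4 FPKM (SD, n = 8), above Cdh5 in 7 of 8 mice. The exception was WT1, where Egfl7 was listed at 0, an uncertain value that enters its mean and SD. Cdh5, Pecam1 and Esam followed at 14.6 ± 4.61, 14.3 ± 5.07 and 12.6 ± 3.07 FPKM (SD, n = 8 each). Cdh5 was above Pecam1 in 7 mice and Pecam1 above Esam in 6, so these neighbours did not separate in every mouse. Esam was above Emcn, at 8.17 ± 2.77 FPKM, in 8 of 8 mice, and this was the one step in the order that held in all. Kdr, Tie1, Flt1, Vwf and Tek made up a lower tier of 4.13 to 6.14 FPKM. Within it the order was not stable, with Kdr above Tie1 in 4 of 8 mice and Vwf above Tek in 3 of 8.

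Of the 3 adhesion genes, Cdh5 alone had groups that did not overlap. Cdh5 (chromosome 8, 104101625 to 104144502, mm10, plus strand) encodes VE-cadherin, the adherens junction protein found almost solely in endothelium. It read 11.6, 11.6, 13.5 and 8.44 FPKM in KO5 to KO8, against 20.8, 13.6, 21.8 and 15.7 FPKM in WT1 to WT4. The 4 KO values all lay under the 4 WT values, though KO7 and WT2 nearly touched. The means were 11.3 ± 2.11 FPKM in KO and 18.0 ± 3.93 FPKM in WT (SD, n = 4 each). Its fitted log2 change was -0.62 with an SE of 0.20 and a 95% interval of -1.07 to -0.17 (limma adjusted p = 0.480). The exact permutation p was 0.0286 (2-sided), the smallest that 4 against 4 mice allow. Pecam1 (chromosome 11, 106654217 to 106750628, minus strand) encodes CD31, an adhesion protein of endothelial junctions that platelets and leukocytes also carry. It read 10.8, 18.5, 12.5 and 5.87 FPKM in KO mice, against 20.2, 12.0, 20.3 and 14.3 FPKM in WT mice. KO6 lay among the WT mice and WT2 among the KO mice, so the groups overlapped. The fitted change was -0.52 (SE 0.32, limma adjusted p = 0.516), and -0.65 (SE 0.32, limma adjusted p = 0.445) without KO6 and WT1. Esam (chromosome 9, 37528078 to 37538319, plus strand) encodes a tight junction adhesion molecule of endothelium and platelets. It read 12.1, 12.3, 9.75 and 8.44 FPKM in KO mice, against 17.5, 11.6, 16.5 and 12.3 FPKM in WT mice. WT2 lay below KO5 and KO6 and so made the groups overlap, WT4 was barely above KO6, and WT1 and WT3 stood well above all KO mice. The fitted change was -0.40 (SE 0.18, limma adjusted p = 0.484).

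The VEGF receptor genes lay close together. Kdr (chromosome 5, 75932827 to 75978458, minus strand) encodes VEGFR2, the main signalling receptor for VEGF-A. It read 4.87, 5.41, 5.66 and 2.67 FPKM in KO mice, against 9.26, 5.56, 8.97 and 6.74 FPKM in WT mice. WT2 lay between KO6 and KO7, and the other 3 WT mice were above every KO mouse. The means were 4.65 ± 1.36 FPKM in KO and 7.63 ± 1.78 FPKM in WT (SD, n = 4 each), a fitted change of -0.62 (SE 0.23, limma adjusted p = 0.480). Flt1 (chromosome 5, 147561604 to 147726011, minus strand) encodes VEGFR1, which binds VEGF-A tightly, signals weakly and also exists as a soluble decoy. It read 4.21, 4.79, 5.10 and 3.14 FPKM in KO mice, against 5.19, 5.04, 8.57 and 6.40 FPKM in WT mice. KO7 lay between WT2 and WT1, so the groups met by a narrow margin. The fitted change was -0.45 (SE 0.19, limma adjusted p = 0.483). Gene-level values do not separate the soluble form from the receptor.

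The TIE receptor genes were lower in KO means too. Tek (chromosome 4, 94739289 to 94874976, plus strand) encodes TIE2, the receptor for angiopoietins that keeps vessels quiescent. It read 2.97, 4.57, 3.93 and 2.54 FPKM in KO mice, against 5.07, 3.24, 6.12 and 4.63 FPKM in WT mice. The groups overlapped through KO6, KO7 and WT2, and the fitted change was -0.35 (SE 0.21, limma adjusted p = 0.512). Tie1 (chromosome 4, 118471191 to 118490061, minus strand) encodes the related receptor without a known ligand of its own that modulates TIE2. It read 4.24, 4.40, 5.78 and 3.15 FPKM in KO mice, against 7.55, 4.98, 9.40 and 7.07 FPKM in WT mice. KO7 exceeded WT2, and otherwise KO mice lay below WT mice. The means were 4.39 ± 1.08 FPKM in KO and 7.25 ± 1.81 FPKM in WT (SD, n = 4 each), a fitted change of -0.61 (SE 0.21, limma adjusted p = 0.480). The exact permutation p was 0.0571 for each of Kdr, Flt1 and Tie1 (2-sided).

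The secreted and surface glycoproteins differed least. Vwf (chromosome 6, 125546774 to 125686679, plus strand) encodes von Willebrand factor, the clotting glycoprotein stored in endothelial granules and also in platelets. It read 5.85, 4.47, 3.76 and 2.54 FPKM in KO mice, against 6.71, 4.04, 6.06 and 4.32 FPKM in WT mice. KO5 lay above WT2 and WT4 and below WT1 and WT3, KO8 was the lowest of all, and the fitted change was -0.30 (SE 0.23, limma adjusted p = 0.599). Emcn (chromosome 3, 137341067 to 137432185, plus strand) encodes endomucin, a sialoglycoprotein of capillary and venous endothelium. It read 10.1, 6.95, 7.50 and 5.15 FPKM in KO mice, against 13.7, 6.21, 9.37 and 6.36 FPKM in WT mice. The fitted change was -0.20 (SE 0.27, limma adjusted p = 0.734). It was 0.03 without KO6 and WT1, and WT1 held the highest value of the 8 mice.

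Egfl7 (chromosome 2, 26580014 to 26593120, plus strand) encodes a secreted vascular protein, and the microRNA gene Mir126a, listed at 0 in every mouse, lies inside it. Egfl7 was listed at 67.6, 51.4, 54.2 and 56.0 FPKM in KO mice, against 0, 70.6, 70.3 and 38.3 FPKM in WT mice. WT1, the library listed at 0, had 20.8 FPKM of Cdh5, near the top of all mice. The 3-prime end of Egfl7 overlaps that of Agpat2, a gene of fat synthesis on the opposite strand, over 64 bases. Agpat2 was listed at 11.0, 44.9, 15.6 and 0 FPKM in KO5 to KO8, against 207.8, 0, 0 and 0 FPKM in WT1 to WT4. Agpat2 was thus highest in WT1, the library with the most fat transcripts, and Egfl7 was at 0 there. How the counting shared reads between the overlapping genes was not tested, and both values are uncertain. The fitted change of Egfl7 was 1.45 (SE 1.25, limma adjusted p = 0.613) with the 0 kept. With that 0 as missing, 7 mice remained and the change was -0.01 (SE 0.24, 95% interval -0.56 to 0.53, limma adjusted p = 0.981).

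**Figure D2:**
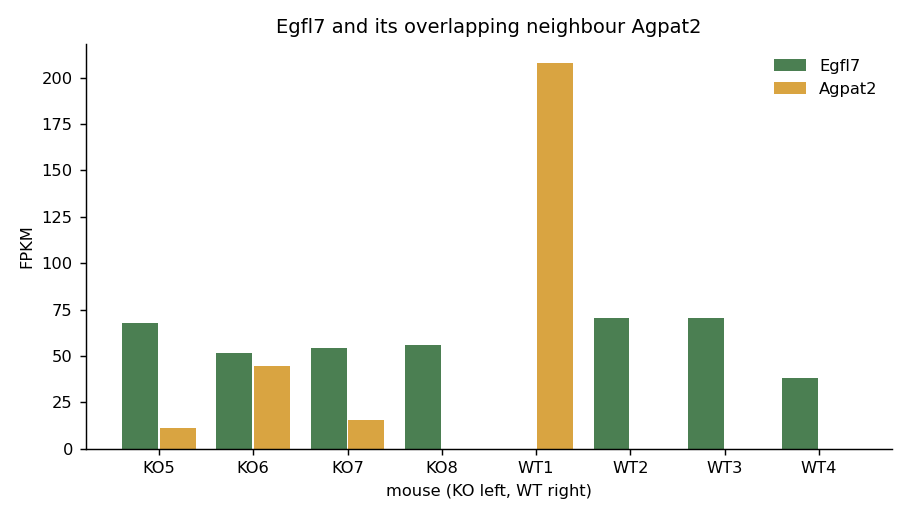
FPKM (vertical axis, from 0) of Egfl7 and Agpat2 in each mouse, KO mice left of WT mice. WT1 is listed at 0 for Egfl7 and at 207.8 FPKM for Agpat2, while the other 7 mice have 38.3 to 70.6 FPKM of Egfl7 and at most 44.9 FPKM of Agpat2.

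Across the mice the 9 genes above 0 everywhere shared their low and high mice. All 9 were lowest in KO8, and each was highest in WT1 (4 genes) or WT3 (5 genes). Their mean deviation from the 8-mouse mean was -0.12, -0.03, -0.08 and -0.67 in KO5 to KO8 on the log2 scale, against 0.45, -0.13, 0.50 and 0.09 in WT1 to WT4. WT2 was thus as low as KO5 to KO7, and the 2 high mice included WT3, which had only 15.4 FPKM of Adipoq. The group means of this deviation were -0.23 ± 0.30 in KO and 0.23 ± 0.30 in WT (SD, n = 4 each). Some of the spread is shared by all genes. Taken relative to the median gene of the same mouse, the 9 genes stood at -0.10, -0.18, -0.02 and -0.32 in KO mice, against 0.34, -0.06, 0.34 and 0.12 in WT mice, with only WT2 inside the KO range. Without KO8 the fitted change was still below 0 for 9 of 10 genes, with a median of -0.28, and 1 of them, Cdh5, kept an unadjusted limma p under 0.05. Without WT3 that number was also 1, again Cdh5, and the median was -0.32. The matching shares of all tested genes were not counted without KO8 or without WT3.

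**Figure D3:**
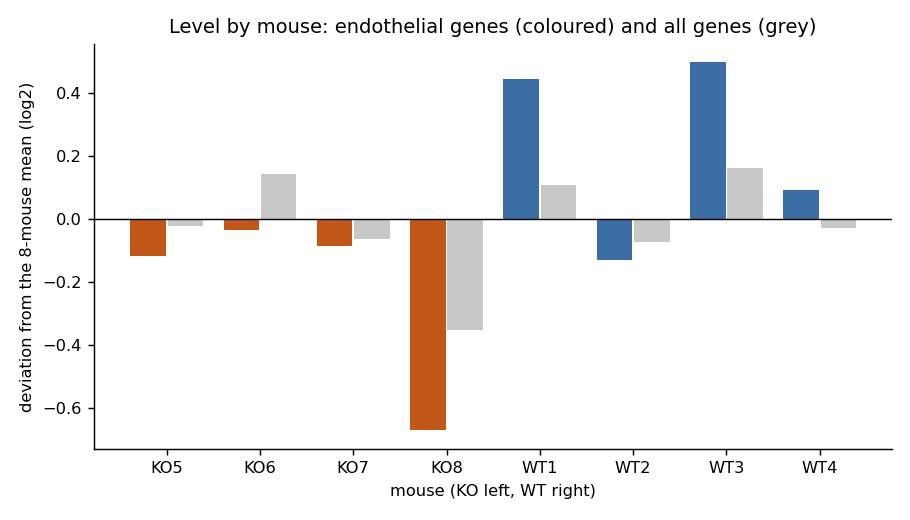
Deviation from the 8-mouse mean of log2(FPKM + 1) (vertical axis) in each mouse, KO mice left of WT mice; coloured bars are the mean over the 9 endothelial genes above 0 everywhere and grey bars the median over all tested genes. KO8 is lowest at -0.67, WT1 and WT3 are highest at 0.45 and 0.50, and WT2 at -0.13 lies among the KO mice.

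Without KO6 and WT1, the comparison of 3 KO with 3 WT mice gave fitted changes below 0 for 8 of the 10 genes, against 65.3% of all tested genes. Egfl7 and Emcn were the exceptions at 0.04 and 0.03. The median over the 10 genes was -0.50, against -0.15 over all tested genes. With limma 0 of 10 genes passed the threshold (limma adjusted p from 0.445 to 0.972), against 0.0989% of all tested genes, and 0 had an unadjusted p under 0.05, against 6.77% of all genes lower at that p. Cdh5 averaged 11.2 ± 2.56 FPKM in KO and 17.0 ± 4.22 FPKM in WT (SD, n = 3 each), still without overlap, as were 13.2% of all genes in that direction. The change of Cdh5 was -0.56 (SE 0.24, 95% interval -1.16 to 0.03) and that of Kdr -0.61 (SE 0.29). With 3 against 3 mice an exact permutation test cannot go below 0.10. In the authors' deposited table, Cdh5 and Pecam1 carry a flag of p under 0.05, 2 of the 10 genes, against 20.2% of the tested genes so flagged, and no source used here states the test behind that flag.

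**Figure D4:**
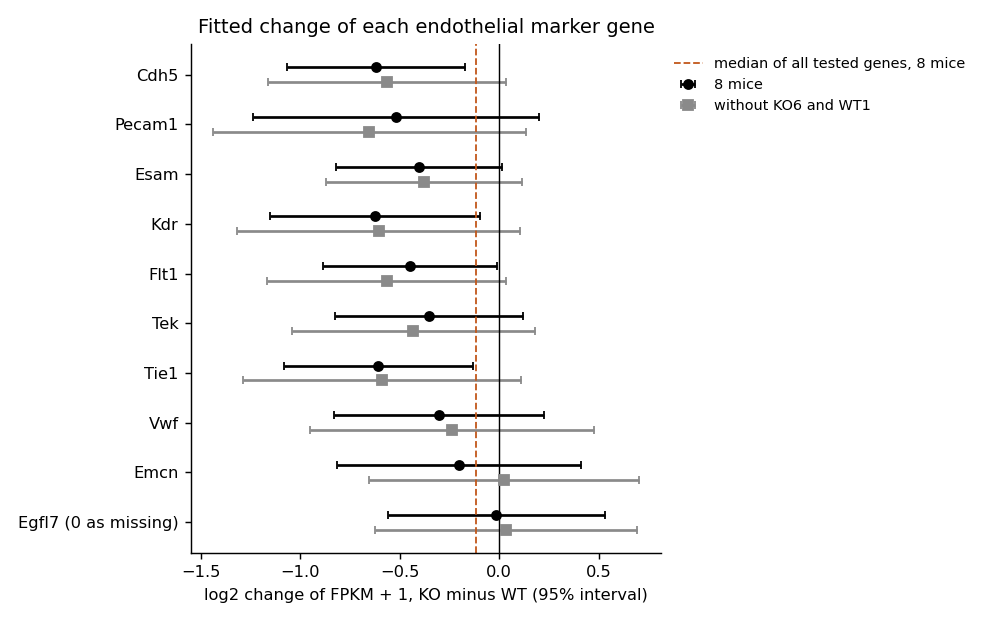
Fitted log2 change of FPKM + 1, KO minus WT (horizontal axis), with its 95% interval for each gene, with all 8 mice (black) and without KO6 and WT1 (grey); the dashed line is the median of all tested genes with 8 mice, -0.12, and Egfl7 is drawn with its 0 as missing, so its black point rests on 7 mice. Cdh5, Kdr, Flt1 and Tie1 have intervals below 0 with 8 mice, and every interval reaches 0 without KO6 and WT1.

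Further genes tied to endothelium were read from 4 more lists, of markers, ligands, receptors and transcription factors. The ligand genes are not all endothelial, as muscle fibres secrete VEGF. Of 35 further endothelial markers, 33 were tested and 0 passed with limma in either direction, against 0.027% of all tested genes. Fitted changes were below 0 for 22 of the 33, near the 63.6% of all tested genes, with a median of -0.21. An unadjusted p under 0.05 was found for 8 of the 33, all lower in KO, against 7.33% of all genes. Jam2, a junctional adhesion molecule, had the smallest p in that list. It read 5.26, 5.04, 6.23 and 4.35 FPKM in KO mice, against 13.2, 10.3, 9.39 and 8.17 FPKM in WT mice (change -0.84, SE 0.17, limma adjusted p = 0.480). KO and WT values of Jam2 did not overlap, and the same held for Icam2 and She, adhesion and adaptor genes chosen after their values were seen, making 3 of 33 against 4.68% of all genes. Robo4, a guidance receptor of endothelium picked with its values already known, was lower in KO means like Cdh5, with a change of -0.70 (SE 0.23, limma adjusted p = 0.480). The tight junction gene Cldn5, picked in the same way, stood at 13.9, 21.7, 8.51 and 9.59 FPKM in KO mice, against 24.4, 8.64, 8.22 and 6.86 FPKM in WT mice. It was high in KO6 and WT1, and its fitted change was 0.24 (SE 0.41, limma adjusted p = 0.799). In all, 11 of the 33 were above 0. Ecscr and Rgcc, picked in the same way, were at 0.41 (SE 0.24, limma adjusted p = 0.512) and 0.42 (SE 0.40, limma adjusted p = 0.632). Without KO6 and WT1, Ecscr was at 0.50 and Rgcc at 0.69. Eng, a co-receptor of endothelium named for its listing, was listed at 0 in all 8 mice, a listing that is not a measured absence.

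Among ligands of the VEGF, angiopoietin, apelin and Notch families, 9 of 12 genes in the table were tested, 0 passed with limma, 6 were below 0 and the median change was -0.14. Over all tested genes 0.027% passed, 63.6% were below 0 and the median was -0.12. Vegfa, the ligand of Kdr and Flt1, had the smallest p. It read 21.8, 26.5, 31.3 and 16.1 FPKM in KO mice, against 39.1, 28.2, 45.3 and 31.5 FPKM in WT mice (change -0.59, SE 0.23, limma adjusted p = 0.480). KO8 was lowest, WT3 and WT1 were highest, and KO7 and WT2 made the groups overlap. Among further endothelial receptors, 14 of 16 were tested, 0 passed with limma, 12 were below 0 and the median was -0.27, to be read against the same shares. The semaphorin receptor Plxnd1 read 4.18, 4.00, 5.79 and 4.02 FPKM in KO mice, against 8.46, 5.61, 8.36 and 6.35 FPKM in WT mice (change -0.57, SE 0.17, limma adjusted p = 0.480). KO7 and WT2 alone made the groups overlap.

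Among endothelial transcription factors, 20 of 23 were tested, 0 passed with limma, 16 were below 0 and the median was -0.25. Over all tested genes 0.027% passed, 63.6% were below 0 and the median was -0.12. Sox18, a factor of arterial and lymphatic vessel formation, had the smallest p at 5.35, 3.56, 6.56 and 3.77 FPKM in KO mice, against 12.0, 7.44, 10.2 and 8.87 FPKM in WT mice (change -0.88, SE 0.21, limma adjusted p = 0.480). Its groups did not overlap, and neither did those of Sox7, a factor of the same family, or the Notch target Heyl, both chosen after their values were seen, making 3 of 20 against 4.68% of all genes. The other way went 4 of the 20. They included Klf2, Hhex and Klf4 at 0.71, 0.56 and 0.39, also named after their values were seen. At an unadjusted limma p under 0.05 there were 1 of 9 ligands, 2 of 14 receptors and 3 of 20 factors, all lower in KO, against 7.33% of all genes. With median-ratio scaling the list medians were -0.06 for the further markers, -0.05 for ligands, -0.17 for receptors and -0.16 for factors, against -0.002 over all genes. Without KO6 and WT1 the medians of the further markers and of the ligands were both -0.14, near the -0.15 over all genes. Those of receptors and of factors were both -0.24.

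Markers of other cells were read in the same mice, and 0 of their tested genes passed with limma, against 0.027% of all tested genes. Their counts below 0 are to be read against 63.6% of all tested genes, and their medians against -0.12. Pericyte and smooth muscle genes, of the cells that wrap capillaries and arterioles, had 8 of 11 tested genes below 0 and a median of -0.28. Their summed level was 213.9 to 285 FPKM in KO and 232.7 to 307 FPKM in WT. Pdgfrb, a receptor of pericytes and fibroblasts, read 4.37, 4.33, 4.29 and 2.72 FPKM in KO mice, against 6.32, 5.50, 8.55 and 5.20 FPKM in WT mice (change -0.58, SE 0.19, limma adjusted p = 0.480), without overlap. Notch3, a receptor of mural cells named after its values were seen, did not overlap either (change -0.49, SE 0.18, limma adjusted p = 0.480), making 2 of 11 against 4.68% of all genes. Rgs5 and Kcnj8, pericyte markers chosen after their values were seen, overlapped throughout, with changes of -0.07 (SE 0.16) and 0.03 (SE 0.13). Lymphatic markers were low, at 4.71 to 10.4 FPKM summed over 5 genes in KO and 4.44 to 10.7 FPKM in WT, with 2 tested and Pdpn at -0.24. Adipocyte genes summed to 1341 to 8348 FPKM in KO and 646 to 15831 FPKM in WT, with 7 of 10 above 0 and a median of 0.40. Plin4, the gene of smallest p, went the other way at -0.54. Without KO6 and WT1 the median was 0.91. The sums were then 2050, 1370 and 1341 FPKM in KO5, KO7 and KO8, against 732, 646 and 757 FPKM in WT2 to WT4. Leaving out KO6 and WT1 thus left adipocyte genes higher in KO. Beyond that step, the part of adipocyte genes in the endothelial levels was not tested. Platelet genes summed to 16.9 to 21.9 FPKM in KO and 12.2 to 36.8 FPKM in WT over 6 genes, with Pf4, named after its values were seen, at 15.8 to 18.1 FPKM in KO and 9.46 to 33.2 FPKM in WT. The platelet glycoprotein gene Gp1bb, named in the same way, was listed at 0 in 7 of 8 mice, and of the 2 tested genes Itga2b had a change of -0.22.

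Macrophage genes summed to 68.4 to 115 FPKM in KO and 47.2 to 126 FPKM in WT, with 5 of 8 below 0 and Cd163 at -0.22. Here too, 63.6% of all tested genes were below 0. Red cell genes summed to 557 to 2094 FPKM in KO and 858 to 1770 FPKM in WT, with 4 of 5 below 0 and Hba-a1 at -0.68. Fibroblast and matrix genes had 7 of 8 below 0, a median of -0.41 and Col1a1 at -1.52 (SE 0.51, limma adjusted p = 0.480), and summed to 376 to 575 FPKM in KO and 432 to 720 FPKM in WT. Schwann cell genes had 5 of 5 above 0, with Mbp at 0.78 (SE 0.31, limma adjusted p = 0.480), and summed to 74.0 to 179 FPKM in KO and 49.6 to 92.7 FPKM in WT. Keratinocyte genes summed to 2.07 to 439 FPKM in KO, the highest being KO6, and 1.22 to 2.197 FPKM in WT, with 4 of 4 above 0 and Krt10 at 1.66. Fibre genes had 5 of 9 below 0, a median of -0.01 and Myh4 at -0.61 (SE 0.19, limma adjusted p = 0.480), and summed to 65124 to 100333 FPKM in KO and 65352 to 76210 FPKM in WT. Their changes ran from -2.48 to 0.52. Only Myh1, named after its values were seen, had groups without overlap, lower in KO, 1 of 9 against 4.68% of all genes. At an unadjusted limma p under 0.05, 3 of 8 fibroblast and matrix genes were lower in KO, against 7.33% of all genes. The same held for 2 of 11 pericyte and smooth muscle genes and 1 of 9 fibre genes. Of the Schwann cell genes 1 of 5 was higher at that p, against 2.99% of all genes. The remaining lists of other cells had 0 in either direction. The part of these cell types in the endothelial values was not tested.

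Transcript length moved with the fitted change in these libraries. The 5 lists, from the 10 marker genes to the ligands, receptors and factors, held 86 tested genes. Of these, 20 had a longest annotated transcript of 5000 bases or more, and 19 of the 20 were below 0 with a median of -0.43. Among all tested genes of that length, 77.3% were below 0 with a median of -0.21. Under 1500 bases, 6 of 10 genes of these lists were below 0 with a median of -0.12, against 40.9% of all tested genes of that length and a median of 0.10. Of the 10 marker genes, Kdr, Flt1 and Vwf have transcripts of 5924, 6895 and 8834 bases, while Esam and Egfl7 have 1865 bases each. With the trend on length and GC content removed in each mouse, 9 of 10 marker genes stayed below 0 with a median of -0.41, against 65.8% of all genes and a median of -0.11. Cdh5 was then at -0.48 (SE 0.17), Kdr at -0.47 (SE 0.22), Tie1 at -0.42 (SE 0.17) and Vwf at -0.15 (SE 0.27), and 0 of 10 passed with limma.

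**Figure D5:**
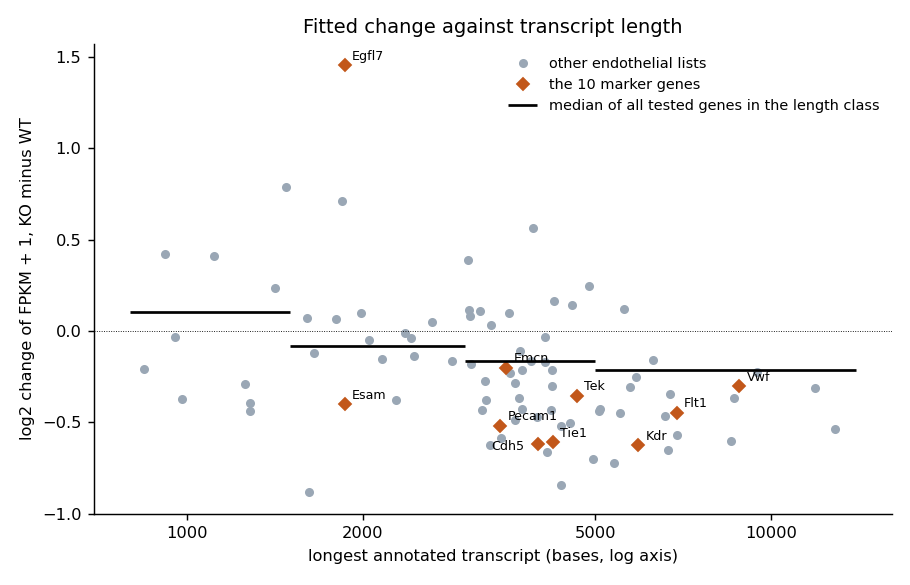
Fitted log2 change of FPKM + 1, KO minus WT (vertical axis), against the longest annotated transcript in bases (horizontal log axis) for the 86 tested genes of the 5 lists, ligands included; diamonds are the 10 marker genes, and black lines are medians of all tested genes in classes split at 1500, 3000 and 5000 bases. The 3 longest marker genes lie at -0.62 (Kdr), -0.45 (Flt1) and -0.30 (Vwf), under the all-gene line of -0.21, and Egfl7 lies apart at 1.45 with its 0 kept.

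Among genes with a mean of at least 5 FPKM, the 6 most like the markers in pattern came from outside the 5 lists. That cut left out endothelial genes of lower level, such as Robo4 with means of 2.08 FPKM in KO and 3.98 FPKM in WT. Whether endothelial genes under the cut lay nearer was therefore not tested. Likeness was the root-mean-square difference between a gene's centred log2 levels over the 8 mice and the mean of the marker genes, among 5663 genes with a mean of at least 5 FPKM. Against all 10 genes, where the 0 of Egfl7 lowers WT1, the nearest were Sirt2, Rap1gds1, Ap1ar, Zdhhc5, Tab2 and Armc8, at differences of 0.041 to 0.057, where a flat gene would have 0.277. Against the 9 genes above 0 everywhere, a comparison chosen after the data were seen, they were Ak3, Hspd1, Prkaca, Ap2a2, Thra and Rbms2, at 0.053 to 0.080, where a flat gene would have 0.344. Ak3, a mitochondrial adenylate kinase, read 15.0, 17.5, 16.4 and 10.3 FPKM in KO mice, against 24.8, 16.3, 23.6 and 17.7 FPKM in WT mice. It shared the low KO8, the high WT1 and WT3 and the low WT2 of the endothelial genes. The mice share their library and depth across all genes, so likeness over 8 mice is a description.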

How the data were processed

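The deposited values are FPKM, 1 column per mouse, per the file headers. Per the labels' protocols, the authors aligned single-end TruSeq libraries to mm10 with TopHat 2.0.9 and used uniquely mapped reads in Cufflinks 2.0.2, while the submitters' processing notes name Cufflinks 2.2.1. No source used here states the annotation or the strand setting. FPKM carry no read totals, so no counting interval is given.

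Columns WT1 to WT4 match labelled mice, and KO5 to KO8 match the KO group only. Replicates are separate mice. For each symbol the row of highest mean was kept. Genes with a mean of at least 1 FPKM were tested with limma-trend on log2(FPKM + 1), genotype as the only term, 2-sided. P-values were adjusted by Benjamini-Hochberg over all tested genes, and calls were made at 0.05. The pseudocount of 1 understates changes of low genes. Exact permutation tests used the 70 labelled splits of the mice. Relative depth is the inverse of the modal ratio of low FPKM values (under 0.3) to those of WT2. The code was tested on simulated data. Positions are the deposited start plus 1, mm10. Transcript lengths come from GENCODE M21.

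The members and lists were chosen with earlier results of these data known. Named genes were the 10 members, from each list the called genes or else the one of smallest p, and the 6 genes nearest in pattern, leaving out Gm-numbered and Rik names. Bcat2, Adipoq and Krt14 were named as checks. Icam2, She, Robo4, Cldn5, Eng, Sox7, Heyl, Notch3, Rgs5, Kcnj8, Pf4, Gp1bb, Ckm, Agpat2 and the genes nearest to the 9 members above 0 everywhere were named after their values were seen. The same holds for Ecscr, Rgcc, Klf2, Hhex, Klf4 and Myh1. Tools were R 4.3.3, limma 3.58.1, Python 3.11.15 and scipy 1.17.1.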

Additional observations from a re-analysis of the deposited data

How the results depend on the processing

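With 8 mice, 0 of the 10 endothelial genes passed in all 20 alternatives (pseudocounts of 0.1 and 0.5, no filter or a mean of 5 FPKM, median-ratio and quantile scaling, robust fit, array weights, 0 as missing, summed rows, length and GC trend removed, each mouse left out, KO6 and WT1 left out), with a lowest limma adjusted p of 0.377. With 6 mice, 0 passed in all 17. Their median change ran from -0.51 to -0.28 with 8 mice and from -0.66 to -0.31 with 6. Cdh5, Pecam1, Kdr, Flt1, Tek, Tie1, Esam and Vwf were below 0 in every alternative that tested them (a mean of 5 FPKM leaves out Tek and Vwf). Emcn changed sign with array weights (0.12) and without KO6 and WT1 (0.026), and it ran from -0.35 to 0.0084 with single mice left out. Egfl7 was -0.014 with 0 as missing and ran from -0.014 to 2.04 with single mice left out. With 6 mice, Emcn was -0.090 with the length and GC trend removed, and leaving out 1 more mouse gave -0.18 to 0.25 for Emcn and -0.25 to 0.18 for Egfl7. Over all genes, 3 passed with 8 mice. That count was 1 with 0 as missing, 11 without KO6 and WT1 and 4 to 9 with single mice left out. The 11 genes of the 6 mice became 7 at a mean of 5 FPKM, 3 with 0 as missing and 7 to 23 with 1 more mouse left out. The cause of these shifts was not tested. The removal of the length and GC trend was chosen after seeing the data. No paired analysis was possible because the KO columns carry no number of a labelled KO mouse. The count of members with an unadjusted limma p under 0.05, 4 with 8 mice, was 1 without KO8 or WT3, 0 without KO6 and WT1, 5 without KO6 or with median-ratio scaling and 6 without WT2. With 6 mice it was 0, and it reached 3 without WT2 or with quantile scaling and 4 with 0 as missing. At that p, 7.33% of all tested genes were lower in KO with 8 mice and 6.77% without KO6 and WT1. For the other settings that share was not counted, so their counts stand without a background. The 4 mice per genotype limit what can be told apart.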
